A study of Homo sapiens with 10 samples.

Results

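The genes described here are the ubiquitin-conjugating enzymes of the UBE2 series and the numbered ubiquitin-specific proteases (USP), in a human monocytic cell line after cross-linking of an Fc gamma receptor. They were chosen by gene symbol: every probe set whose single symbol starts with UBE2 or is USP followed by a number, without UBE2C, UBE2L6 and USP18, and through the brightest probe set where a gene has several. The rule gave 32 genes, 13 of them UBE2 and 19 USP, of 7713 genes with a single symbol on the array. USP9Y lies on chromosome Y and its values are not given, which leaves 31 genes with 1 probe set each. The rule used no measured change, and all 31 probe sets passed the filter on dim signal.

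The cells were U937, an established line from a histiocytic lymphoma that is widely used as a monocyte model, and all 10 arrays came from cells differentiated with interferon gamma. The 5 groups had 2 arrays each. They were control cells with no cross-linking and no time listed, cells in which CD32, a low-affinity IgG receptor, had been cross-linked for 2 h or 6 h, and cells in which CD64, the high-affinity IgG receptor, had been for the same times. What agent cross-linked the receptors is not given in the sources used here. For 1 of the CD32 2 h arrays the source name reads CD332 while the title and description read CD32, which were followed. In every cross-linked group 1 of the arrays is labelled a duplicate without saying whether it was a separate culture, so the spread that p-values measure is that between arrays and may be technical. The comparisons ask what each receptor changed, where CD64 differed from CD32, and what moved between 2 h and 6 h.

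Ubiquitin is attached to proteins by a relay. An E1 enzyme activates it, an E2 enzyme of the UBE2 series carries it on a cysteine, and an E3 ligase picks the substrate. Ubiquitin-specific proteases cut it off again, and so oppose the ligases, rescue proteins from the proteasome, or recycle ubiquitin. In monocytes and macrophages this system sets how long signalling proteins last after a receptor is engaged, directs internalised Fc receptors to lysosomes and builds the non-degradative chains used in inflammatory signalling.

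Signal is the deposited linear intensity, which the submitters had scaled alike: the mean without the lowest and highest 2% was 499 to 499.9 on every array. Array medians lay between 101 and 153. Each signal under a floor of 37.5 was set to the floor before log2 was taken, and 20.2% to 29.8% of probe sets lay at or under it. Added bacterial and phage control transcripts differed between groups. Their mean log2 signal over 16 probe sets was 10.48 in control, 11.11 at CD32 2 h, 12.22 at CD32 6 h, 10.71 at CD64 2 h and 9.15 at CD64 6 h. For actin, 3' probe signal over 5' probe signal was 1.30, 1.56, 1.99, 1.81 and 1.12 in that order. Both measures went with the group, and sample handling cannot be told apart from it. Of 8 markers on the array listed for a monocytic line, 6 were above the floor on all 10 arrays, among them ITGAM and CSF1R. CD14 lay under it on 7 and MPO on 8. PTPRC and AZU1 were the brightest of the 8, with median signals of 2538 and 2010. The summed signal of those 8 ran from 5072 at CD64 2 h to 7782 at CD32 6 h. That of 5 T cell markers ran from 216 at CD32 6 h to 306 in control, of 3 B cell markers from 190 at CD64 2 h to 305 at CD32 6 h, of 6 epithelial and fibroblast markers from 157 at CD32 6 h to 189 in control, and of 3 erythroid and platelet markers from 261 in control to 523 at CD64 2 h. The part of these differences in the results was not tested. Above the floor on all 10 arrays were 1 T cell marker, CD2 (38.4 to 105), and 1 B cell marker, CD79A (76.5 to 247). So was 1 erythroid and platelet marker, HBB (170 to 464), while 0 epithelial and fibroblast markers were.

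Among the 31 genes the mean signal over arrays ran from 32 to 4062 with a median of 486, and 28 had no array at or under the floor. Duplicates lay close: the median SD within a group was 0.121 log2 units. Calls are limma adjusted p-values under 0.05, adjusted over all 7708 probe sets tested. Of the 73 calls below 24 held under every alternative setting. Dropping the variance trend ended 35 of them, fitting only the groups compared 20, and dropping the filter on dim probe sets 10. Losses under these settings are named for only some of the genes below, so the losses listed for a gene can be incomplete. In the limma F-test over the 5 groups 16 of 31 genes differed, 8 UBE2 and 8 USP, or 51.6%, against 34.5% of all probe sets tested. The shares over all probe sets, here and below, were not matched for signal. The 31 genes were brighter, with a median of 486 where array medians were 101 to 153. At least 1 comparison with control was called for 22 of 31 genes, against 35.4% of all probe sets. Among the 22, UBE2A, UBE2N, UBE2S, USP5, USP20 and USP21 were not called in the F-test (adjusted p = 0.0596 to 0.104). In at least 1 comparison with control 14 of 31 genes rose, where 17.5% of all probe sets did, and 9 fell, where 19.8% did. Of the UBE2 genes 8 of 13 rose and 3 fell, and of the USP genes 6 of 18 rose and 6 fell. The difference between the families was not tested. UBE2B and USP22 rose in 4 of 4 comparisons, where 2.91% of all probe sets did, and USP4 fell in 4 of 4, where 1.61% did. These 4 comparisons share the control arrays. USP14 was the only one of the 31 that rose in 1 comparison with control and fell in another, where 1.98% of all probe sets did.

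**Figure D1:**
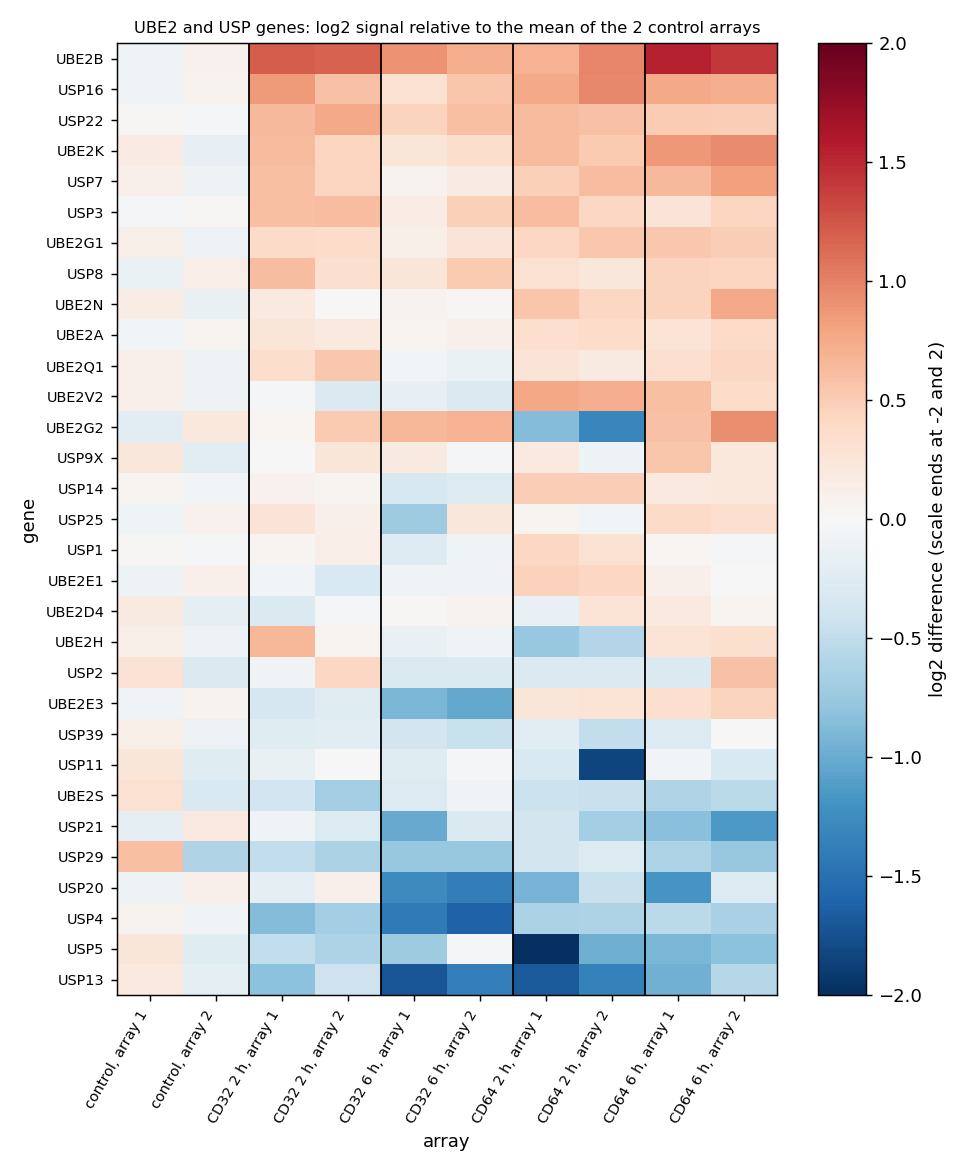
Log2 signal of each of the 31 genes (rows, ordered by their mean over the 8 cross-linked arrays) on each of the 10 arrays (columns), relative to the mean of the 2 control arrays after flooring at 37.5; red is higher and blue lower, and colours stop at -2 and 2. UBE2B, USP16 and USP22 are red in all 8 cross-linked columns and USP4 is blue in all 8, while UBE2G2 is blue at CD64 2 h and red in the other cross-linked groups.

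With CD64 12 and 10 genes rose and with CD32 7 and 2, at 2 h and 6 h in each case. After 2 h of CD32 cross-linking 8 of 31 genes changed (15.5% of all probe sets did): 7 rose (8.86%) and 1 fell (6.60%). After 6 h of CD32 7 changed (20.0% of all): 2 rose (9.63%) and 5 fell (10.3%). After 2 h of CD64 16 changed (15.9% of all): 12 rose (7.64%) and 4 fell (8.24%). After 6 h of CD64 13 changed (20.6% of all): 10 rose (10.7%) and 3 fell (9.94%). The median log2 change of the 31 genes was 0.10, -0.12, 0.22 and 0.33 in that order, beside -0.03, -0.08, -0.13 and -0.04 over all probe sets. Under quantile normalization, which brings the CD64 2 h median of all probe sets to about 0, 12 genes rose and 2 fell there. The difference between comparisons in how many genes were called was not itself tested. With 1 array of a group left out, the count of 8 at CD32 2 h was 4 without CD32 2 h replicate 1 or replicate 2. The count of 16 at CD64 2 h was 10 without control replicate 1, 9 without control replicate 2, 8 without CD64 2 h replicate 1 and 10 without CD64 2 h replicate 2. The count of 13 at CD64 6 h was 8 without control replicate 2 and 6 without either CD64 6 h array. Under cyclic loess normalization it was 8, with 6 higher and 2 lower.

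**Figure D2:**
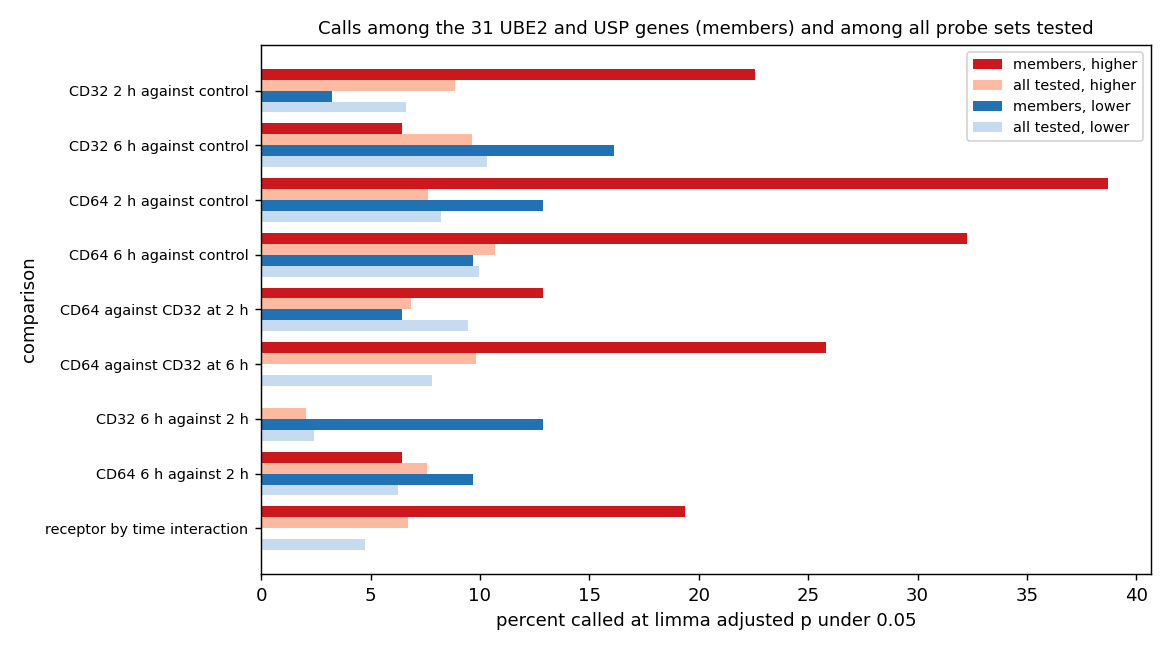
Percent of the 31 genes (dark bars) and of all 7708 probe sets tested (light bars) called higher (red) or lower (blue) at a limma adjusted p under 0.05, for 8 comparisons and the interaction of receptor and time. Against control the dark red bars stand above the light ones at CD32 2 h, CD64 2 h and CD64 6 h. Among the same comparisons the dark blue bars do so at CD32 6 h and CD64 2 h. They also do from 2 h to 6 h with either receptor. No gene was called lower with CD64 than with CD32 at 6 h.

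UBE2B, an E2 that works with the ligase RAD18 in DNA damage tolerance and also modifies histones, rose furthest of the 31. Its signal was 232 and 261 on the control arrays, 572 and 557 at CD32 2 h, 458 and 405 at CD32 6 h, 400.5 and 482 at CD64 2 h, and 718 and 654 at CD64 6 h. All 8 cross-linked arrays lay above both controls. The rise was 2.29-fold at CD32 2 h (log2 1.20 ± 0.159 SE, limma adjusted p = 0.000558), 1.75-fold at CD32 6 h (0.81 ± 0.159, adjusted p = 0.0045), 1.79-fold at CD64 2 h (0.84 ± 0.159, adjusted p = 0.00519) and 2.78-fold at CD64 6 h (1.48 ± 0.159, adjusted p = 8.87e-05). With only the groups compared in the fit, the CD32 6 h and CD64 2 h calls were lost, at adjusted p = 0.0514 and 0.0539. These are values of bulk RNA, so a change in how many cells hold a transcript and a change in its amount per cell cannot be told apart. UBE2A, the close relative of UBE2B, rose with CD64. It read 735 and 794 in control, 959 and 987 at CD64 2 h, and 925 and 998 at CD64 6 h, a rise of 1.27-fold (log2 0.35 ± 0.103, adjusted p = 0.0419) and 1.26-fold (0.33 ± 0.103, adjusted p = 0.0425). The CD64 2 h call was lost without any one of control replicates 1 and 2, CD32 2 h replicates 1 and 2, CD64 2 h replicates 1 and 2 and CD64 6 h replicates 1 and 2 (adjusted p = 0.0503 to 0.173). The CD64 6 h call was lost without any of the same 8 arrays (adjusted p = 0.0507 to 0.23), under quantile or cyclic loess normalization (adjusted p = 0.106 and 0.124) and with a floor of 16 (0.0514).

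UBE2K, an E2 that builds degradative chains, rose in 3 of 4 comparisons. Its signal was 568 and 453 in control, 784 and 684 at CD32 2 h, 599 and 646 at CD32 6 h, 790.5 and 730.5 at CD64 2 h, and 922 and 975 at CD64 6 h. The CD64 6 h arrays were the highest and the controls the lowest. The rise was 1.87-fold at CD64 6 h (log2 0.90 ± 0.139 SE, adjusted p = 0.000897), which held under every alternative. It was 1.5-fold at CD64 2 h (0.58 ± 0.139, adjusted p = 0.0163) and 1.44-fold at CD32 2 h (0.53 ± 0.139, adjusted p = 0.0261). The CD64 2 h call did not hold without control replicate 2 (adjusted p = 0.0856) or CD64 2 h replicate 1 (adjusted p = 0.104). The CD32 2 h call did not hold without control replicate 2 (adjusted p = 0.13), CD32 2 h replicate 1 (adjusted p = 0.17) or CD32 2 h replicate 2 (adjusted p = 0.0539).

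UBE2V2 and UBE2N form the pair that builds non-degradative chains: UBE2N carries the ubiquitin, and UBE2V2, an E2 variant with no catalytic cysteine, orients the acceptor. UBE2V2 read 979 and 850.2 in control, 893 and 746.5 at CD32 2 h, 810 and 744 at CD32 6 h, 1562 and 1513 at CD64 2 h, and 1386 and 1175 at CD64 6 h. All 4 CD64 arrays lay above the other 6. It rose 1.69-fold at CD64 2 h (log2 0.75 ± 0.129 SE, adjusted p = 0.00291), which held under every alternative, and 1.4-fold at CD64 6 h (0.48 ± 0.129, adjusted p = 0.0214). The 6 h call did not hold without control replicate 2 (adjusted p = 0.126) or CD64 6 h replicate 1 (adjusted p = 0.183), and under quantile or cyclic loess normalization (adjusted p = 0.0554 and 0.0534). UBE2N was also highest on the 4 CD64 arrays, with 348 and 285 in control, 463 and 418 at CD64 2 h, and 428 and 531 at CD64 6 h. Its 1.51-fold rise at CD64 6 h (0.60 ± 0.187, adjusted p = 0.044) was lost without any 1 of 9 arrays, all but control replicate 1 (adjusted p = 0.0553 to 0.29), and under quantile or cyclic loess normalization (adjusted p = 0.0688 and 0.0646).

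**Figure D3:**
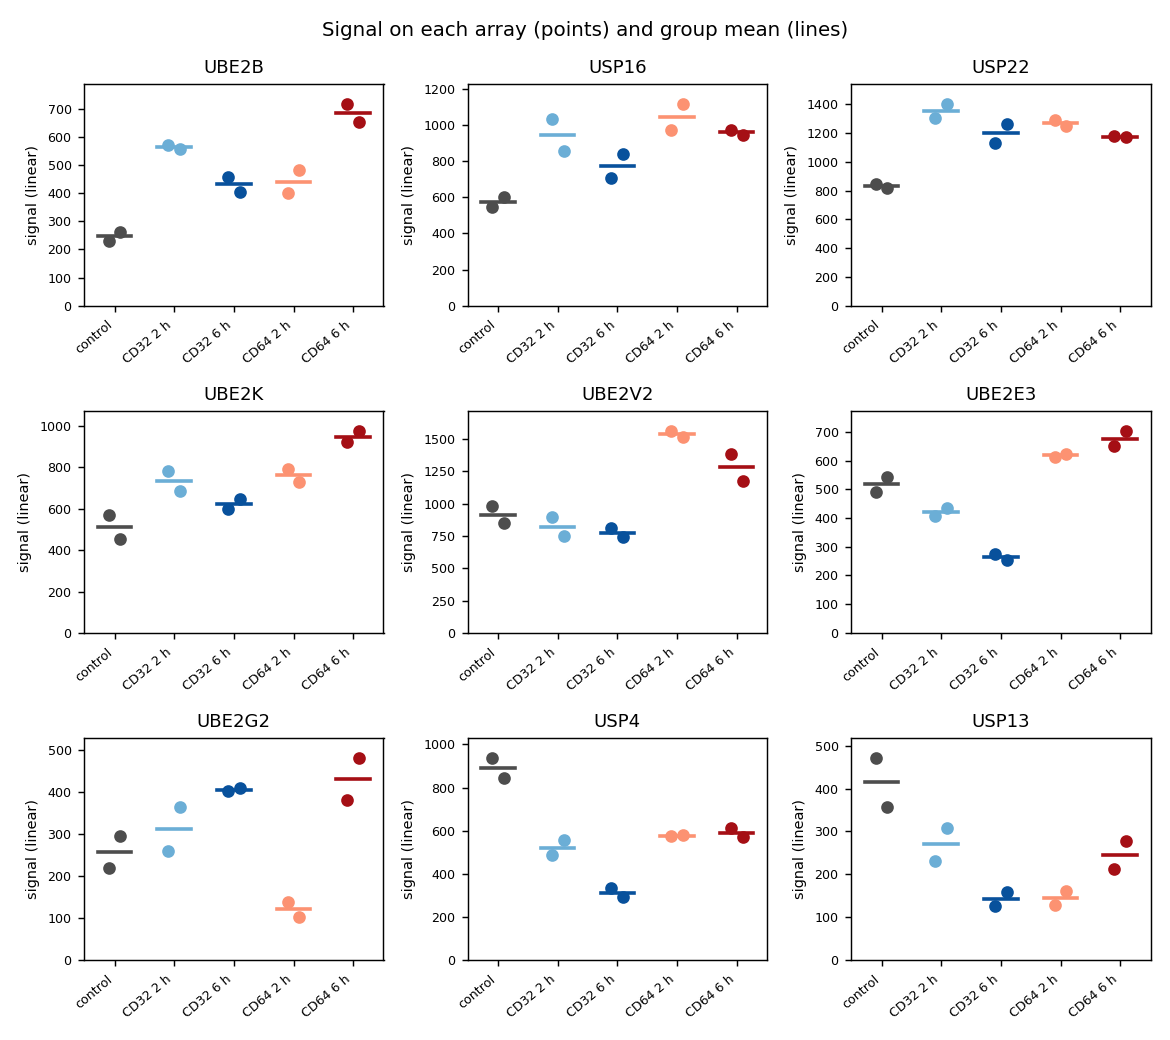
Deposited signal (linear, y axis from 0) on each array for 9 genes in the 5 groups; points are the 2 arrays of a group and lines are their mean. UBE2B, USP16, USP22 and UBE2K lie above control in all cross-linked groups, UBE2V2 is high in the CD64 groups, and USP4 and USP13 lie below control.

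UBE2G1 and UBE2G2 are E2s of the pathway that clears misfolded proteins from the endoplasmic reticulum. UBE2G1 read 566 and 479 in control, 696 and 758 at CD64 2 h, and 760 and 729 at CD64 6 h, a rise of 1.4-fold (log2 0.48 ± 0.129 SE, adjusted p = 0.0282) and 1.43-fold (0.52 ± 0.129, adjusted p = 0.0153). The 2 h call did not hold without control replicate 2 (adjusted p = 0.117), CD64 2 h replicate 1 (adjusted p = 0.0718) or CD64 2 h replicate 2 (adjusted p = 0.159). The 6 h call did not hold without control replicate 2 (adjusted p = 0.082), CD64 6 h replicate 1 (adjusted p = 0.102) or CD64 6 h replicate 2 (adjusted p = 0.0653). UBE2G2 read 218 and 295 in control, 260.4 and 364 at CD32 2 h, 403 and 409.5 at CD32 6 h, 139 and 102 at CD64 2 h, and 382 and 481 at CD64 6 h. The CD64 2 h arrays were the lowest of all 10 and the CD64 6 h arrays were among the highest. It fell 2.13-fold at CD64 2 h (log2 -1.09 ± 0.267, adjusted p = 0.0192). That call did not hold without control replicate 2 (adjusted p = 0.104) or CD64 2 h replicate 2 (adjusted p = 0.119), and under quantile or cyclic loess normalization (log2 -0.81 and -0.87, adjusted p = 0.0776 and 0.0554).

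UBE2E3 and UBE2E1 are related E2s with an N-terminal extension. UBE2E3 read 491 and 542 in control, 408 and 436 at CD32 2 h, 273 and 255 at CD32 6 h, 613 and 623 at CD64 2 h, and 649.9 and 703 at CD64 6 h. The CD32 6 h arrays were the lowest, and the 4 CD64 arrays lay above the controls. It fell 1.95-fold at CD32 6 h (log2 -0.97 ± 0.139 SE, adjusted p = 0.000663), which held under every alternative. UBE2E1 read 3635 and 4154 in control and 5356 and 5170.1 at CD64 2 h, while the other 3 cross-linked groups lay between 3163 and 4159. Its 1.35-fold rise at CD64 2 h (0.44 ± 0.103, adjusted p = 0.0159) was lost without control replicate 1 (adjusted p = 0.107), CD64 2 h replicate 1 (adjusted p = 0.0899) or CD64 2 h replicate 2 (adjusted p = 0.0561).

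UBE2Q1 read 1393 and 1214 in control, 1655 and 1895 at CD32 2 h, 1258 and 1180.4 at CD32 6 h, 1555 and 1468 at CD64 2 h, and 1646 and 1739 at CD64 6 h. It rose 1.36-fold at CD32 2 h (log2 0.45 ± 0.106 SE, adjusted p = 0.0164) and 1.3-fold at CD64 6 h (0.38 ± 0.106, adjusted p = 0.0267). The CD32 2 h call did not hold without control replicate 2 (adjusted p = 0.0962) or CD32 2 h replicate 2 (adjusted p = 0.134). The CD64 6 h call did not hold without control replicate 2 (adjusted p = 0.144), CD64 6 h replicate 1 (adjusted p = 0.0804) or CD64 6 h replicate 2 (adjusted p = 0.152), and under quantile or cyclic loess normalization (adjusted p = 0.0764 and 0.0556). UBE2S, which extends chains on substrates of the anaphase-promoting complex during mitosis, read 4276 and 2797 in control and 2283 and 2376 at CD64 6 h. The controls of UBE2S lay far apart, and its 1.48-fold fall (log2 -0.57 ± 0.172, adjusted p = 0.0373) became -0.26 with adjusted p = 0.263 without control replicate 1. It was also lost without any of CD32 6 h replicates 1 and 2, CD64 2 h replicates 1 and 2 and CD64 6 h replicates 1 and 2 (adjusted p = 0.0516 to 0.157), and under cyclic loess normalization (adjusted p = 0.0818). UBE2H, an E2 of the CTLH ligase complex, and UBE2D4, of the widely acting UBE2D group, were not called against control. For UBE2D4 the group means ran from 314 to 381, and the 95% interval of its change at CD64 6 h was -0.34 to 0.59 on the log2 scale.

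Among the proteases, USP22, the deubiquitinase of the SAGA coactivator complex that acts on histones, rose in 4 of 4 comparisons. It read 846 and 819.9 in control, 1306 and 1404 at CD32 2 h, 1131 and 1267 at CD32 6 h, 1294 and 1248 at CD64 2 h, and 1178 and 1171 at CD64 6 h. Every cross-linked array lay above both controls. The rise was 1.63-fold at CD32 2 h (log2 0.70 ± 0.0975 SE, adjusted p = 0.000748), 1.44-fold at CD32 6 h (0.52 ± 0.0975, adjusted p = 0.00322), 1.53-fold at CD64 2 h (0.61 ± 0.0975, adjusted p = 0.00187) and 1.41-fold at CD64 6 h (0.50 ± 0.0975, adjusted p = 0.00407). All of these held under every alternative.

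USP16, another histone deubiquitinase, read 546 and 602 in control, 1031 and 857 at CD32 2 h, 705 and 839 at CD32 6 h, 970.3 and 1116 at CD64 2 h, and 974 and 943 at CD64 6 h. No cross-linked array overlapped with the controls. It rose 1.64-fold at CD32 2 h (log2 0.71 ± 0.137 SE, adjusted p = 0.00512), 1.82-fold at CD64 2 h (0.86 ± 0.137, adjusted p = 0.00179) and 1.67-fold at CD64 6 h (0.74 ± 0.137, adjusted p = 0.00274). The CD32 2 h call was lost without CD32 2 h replicate 1 (adjusted p = 0.0608), and the CD64 calls held under every alternative. USP3, which also acts on histones, read 821 and 851 in control, 1275 and 1284 at CD32 2 h, 931 and 1166 at CD32 6 h, 1279 and 1113 at CD64 2 h, and 997 and 1132 at CD64 6 h. It rose 1.53-fold at CD32 2 h (0.61 ± 0.128, adjusted p = 0.00807) and 1.43-fold at CD64 2 h (0.51 ± 0.128, adjusted p = 0.0205). The CD32 2 h call was lost without CD32 2 h replicate 1 (adjusted p = 0.0568) or replicate 2 (adjusted p = 0.0562). The CD64 2 h call did not hold without control replicate 1 (adjusted p = 0.0948), control replicate 2 (adjusted p = 0.0632) or CD64 2 h replicate 1 (adjusted p = 0.142).

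USP7, which removes ubiquitin from the p53 ligase MDM2 and from p53 itself, read 424.5 and 370.2 in control, 598 and 537 at CD32 2 h, 418 and 445 at CD32 6 h, 552 and 611 at CD64 2 h, and 622 and 704 at CD64 6 h. CD32 6 h overlapped with control and the other groups did not. The rise at CD64 6 h was 1.67-fold (log2 0.74 ± 0.145 SE, adjusted p = 0.00407) and held under every alternative. It was 1.43-fold at CD32 2 h (0.52 ± 0.145, adjusted p = 0.0358), a call lost without any of control replicate 2, CD32 2 h replicates 1 and 2 and CD64 6 h replicates 1 and 2 (adjusted p = 0.0542 to 0.188). At CD64 2 h it was 1.47-fold (0.55 ± 0.145, adjusted p = 0.0263), lost without control replicate 2 (adjusted p = 0.103), CD64 2 h replicate 1 (adjusted p = 0.0671) or CD64 2 h replicate 2 (adjusted p = 0.154).

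USP14, which sits on the proteasome and trims ubiquitin from its substrates, was called higher at CD64 2 h and lower at CD32 6 h. From 2 h to 6 h USP14 fell with both receptors (log2 -0.37 with CD32 and -0.29 with CD64). It read 1806 and 1686 in control, 1862 and 1811 at CD32 2 h, 1396 and 1437 at CD32 6 h, 2450.3 and 2464 at CD64 2 h, and 1990.1 and 2029 at CD64 6 h. CD32 6 h was the lowest group and CD64 2 h the highest, with no overlap between them and the rest. It rose 1.41-fold at CD64 2 h (log2 0.49 ± 0.082 SE, adjusted p = 0.00237), which held under every alternative. Its fall at CD32 6 h was 1.23-fold (-0.30 ± 0.082, adjusted p = 0.025), a call lost without control replicate 1 (adjusted p = 0.113), CD32 6 h replicate 1 (adjusted p = 0.107) or CD32 6 h replicate 2 (adjusted p = 0.0587). USP1, which acts on FANCD2 and PCNA in DNA repair, read 3516 and 3391 in control and 4598 and 4277 at CD64 2 h. Its 1.28-fold rise (0.36 ± 0.0901, adjusted p = 0.0205) was lost without control replicate 1 (adjusted p = 0.0584), control replicate 2 (adjusted p = 0.0803) or CD64 2 h replicate 1 (adjusted p = 0.126), and under quantile or cyclic loess normalization (adjusted p = 0.117 and 0.0863).

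USP4 fell in 4 of 4 comparisons. This protease, related to USP11, read 937 and 845 in control, 488 and 555 at CD32 2 h, 333 and 292 at CD32 6 h, 574 and 579 at CD64 2 h, and 614 and 569.5 at CD64 6 h. Every cross-linked array lay below both controls, and CD32 6 h lay below all other groups. The fall was 1.71-fold at CD32 2 h (log2 -0.77 ± 0.138 SE, adjusted p = 0.00345) and 2.86-fold at CD32 6 h (-1.51 ± 0.138, adjusted p = 3.12e-05), both of which held under every alternative. It was 1.54-fold at CD64 2 h (-0.63 ± 0.138, adjusted p = 0.0114), a call lost without control replicate 1 (adjusted p = 0.0692), CD64 2 h replicate 1 (adjusted p = 0.0635) or CD64 2 h replicate 2 (adjusted p = 0.0561). It was 1.51-fold at CD64 6 h (-0.59 ± 0.138, adjusted p = 0.011), lost without control replicate 1 (adjusted p = 0.0668) or CD64 6 h replicate 2 (adjusted p = 0.0857).

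USP13 and USP5 are closely related proteases, and USP5 takes apart free ubiquitin chains. USP13 read 471 and 358 in control, 232 and 308 at CD32 2 h, 125 and 159 at CD32 6 h, 128 and 161 at CD64 2 h, and 211 and 277 at CD64 6 h. Every cross-linked array lay below both controls. It fell 2.91-fold at CD32 6 h (log2 -1.54 ± 0.292 SE, adjusted p = 0.00357) and 2.87-fold at CD64 2 h (-1.52 ± 0.292, adjusted p = 0.0055), and both held under every alternative. USP5 read 269 and 192 in control, 161 and 149 at CD32 2 h, 139 and 224 at CD32 6 h, 23.6 and 115 at CD64 2 h, and 121 and 129.5 at CD64 6 h. Its fall at CD64 2 h (log2 -1.79 ± 0.501, adjusted p = 0.0337) rests on CD64 2 h replicate 1, which lay under the floor, so the size depends on the floor. Without that array it was -0.98 with adjusted p = 0.212. It was also lost without any of control replicates 1 and 2, CD32 2 h replicates 1 and 2 and CD64 6 h replicate 2 (adjusted p = 0.0542 to 0.167), and under quantile or cyclic loess normalization (adjusted p = 0.0701 and 0.0848).

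USP20, a protease that binds the VHL protein, read 224 and 259 in control, 213 and 259.9 at CD32 2 h, 99.5 and 92.5 at CD32 6 h, 127 and 176 at CD64 2 h, and 106 and 199 at CD64 6 h. It fell 2.51-fold at CD32 6 h (log2 -1.33 ± 0.366 SE, adjusted p = 0.0264). That call did not hold without control replicate 1 (adjusted p = 0.0674), control replicate 2 (adjusted p = 0.0998), CD32 6 h replicate 1 (adjusted p = 0.0852) or CD32 6 h replicate 2 (adjusted p = 0.0994), and under cyclic loess normalization (adjusted p = 0.0699). USP21, which acts on histones, read 303 and 395 in control and 194 and 157 at CD64 6 h. Its 1.98-fold fall (log2 -0.99 ± 0.292, adjusted p = 0.0345) was lost without any of control replicate 2, CD32 2 h replicates 1 and 2 and CD64 6 h replicates 1 and 2 (adjusted p = 0.0523 to 0.19). The CD32 6 h arrays, on which USP4, USP20 and UBE2E3 were lowest, also had the highest actin ratio and control transcript signal given above. The part of these in the falls was not tested.

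The bases upstream of USP22 and USP16, which rose, and of USP4 and USP13, which fell, are shown so that genes moving opposite ways can be compared. Each run is the 250 bases before the RefSeq start site in GRCh38.p14, 5′ to 3′ on the strand of the gene. Capitals mark matches on either strand to 4 motifs, none of which overlap one another here. The GC box was searched as GGGCGG. The ETS core was searched as CGGAAG. The CCAAT box was searched by those letters. The response element of cyclic AMP was searched as TGACG, one end of the full site. The windows are chr17:21043012-21043261 on the minus strand for USP22, chr21:29024418-29024667 on the plus strand for USP16, chr3:49340054-49340303 on the minus strand for USP4 and chr3:179652790-179653039 on the plus strand for USP13.
USP22: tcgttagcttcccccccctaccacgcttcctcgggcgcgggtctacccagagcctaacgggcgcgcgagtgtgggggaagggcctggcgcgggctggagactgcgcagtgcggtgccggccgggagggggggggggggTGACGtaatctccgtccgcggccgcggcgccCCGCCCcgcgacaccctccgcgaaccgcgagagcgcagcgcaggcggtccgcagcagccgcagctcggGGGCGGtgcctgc
USP16: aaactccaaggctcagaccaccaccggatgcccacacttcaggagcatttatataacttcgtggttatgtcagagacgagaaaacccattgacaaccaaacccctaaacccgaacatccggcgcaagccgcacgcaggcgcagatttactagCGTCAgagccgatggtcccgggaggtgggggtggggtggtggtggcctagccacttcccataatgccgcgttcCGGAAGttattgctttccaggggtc
USP4: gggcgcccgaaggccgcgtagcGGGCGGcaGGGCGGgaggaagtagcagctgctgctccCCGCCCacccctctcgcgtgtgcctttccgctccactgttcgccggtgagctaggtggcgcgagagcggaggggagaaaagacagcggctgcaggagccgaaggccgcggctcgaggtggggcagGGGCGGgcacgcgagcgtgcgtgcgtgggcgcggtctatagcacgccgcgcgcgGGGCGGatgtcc
USP13: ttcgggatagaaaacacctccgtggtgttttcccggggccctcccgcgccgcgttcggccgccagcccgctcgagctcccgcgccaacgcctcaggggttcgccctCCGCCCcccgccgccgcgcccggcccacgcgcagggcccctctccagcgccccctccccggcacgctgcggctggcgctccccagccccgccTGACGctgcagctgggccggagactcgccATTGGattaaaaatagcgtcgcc

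USP4 held 5 GC boxes, USP22 held 2, USP13 held 1 and USP16 held 0. TGACG was matched 1 time each in USP22, USP16 and USP13 and 0 times in USP4. The share of G and C was 76.8% in USP22, 74% in USP4, 74.4% in USP13 and 56% in USP16, with a median of 58% over all 35116 windows of that length. Of 31 genes 26 had an entry. In at least 1 window, 21 of the 26 held the GC box, 10 the CCAAT box, 12 the TGACG letters and 9 the ETS core, where 42.6%, 32%, 21.2% and 16.5% of all windows did. Some genes have several windows, which raises their chance of a match. A match describes letters and is not a bound site.

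Of the 31 genes 9 were called in none of the 4 comparisons with control, and 8 of these in no other comparison either. The 8 were UBE2D4, USP2, USP8, USP9X, USP11, USP25, USP29 and USP39. USP8, which sorts receptors at endosomes, came nearest, with 352 and 421 in control and 449 to 593 on the cross-linked arrays. No cross-linked array of USP8 overlapped with control, yet its adjusted p was 0.0882 at CD32 2 h (log2 0.47, 95% interval 0.10 to 0.84), 0.14 at CD32 6 h, 0.357 at CD64 2 h and 0.0998 at CD64 6 h. USP9X, a large protease encoded on the X chromosome, read 261 to 449 over all arrays, and its interval at CD64 6 h against control was -0.12 to 0.89 on the log2 scale. USP39, a splicing factor that lacks protease activity, read 216 to 331. USP11 read 272 to 399.7 except for CD64 2 h replicate 2, at 93.8. USP25 read 429 to 598 except for CD32 6 h replicate 1, at 280. USP2 lay at or under the floor on 6 of 10 arrays and USP29 on 3, so their changes are poorly measured.

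The receptors were then compared directly, with the control arrays entering only the estimate of the spread. At 6 h 8 of 31 genes differed (17.6% of all probe sets did): 8 were higher with CD64 than with CD32 (9.81%) and 0 were lower (7.80%). By limma with unadjusted p below 0.05 14 were higher and 1 lower, where 16.9% and 12.1% of all probe sets were. Arrays did not overlap for 21 genes that were higher and 2 that were lower with CD64, where 33.1% and 23.6% of all probe sets did the same. The median difference was 0.32 log2 units, beside 0.05 over all probe sets. Of the 5 groups CD64 6 h had the lowest actin ratio, 1.12, and the lowest mean log2 control transcript signal, 9.15. CD32 6 h had the highest of both, at 1.99 and 12.22. The part of these in the receptor difference was not tested. UBE2E3 differed most, at 2.56-fold (log2 1.36 ± 0.139 SE, adjusted p = 0.000113), followed by USP4 at 1.9-fold (0.92 ± 0.138, adjusted p = 0.00112), UBE2V2 at 1.64-fold (0.72 ± 0.129, adjusted p = 0.00332) and USP14 at 1.42-fold (0.50 ± 0.082, adjusted p = 0.00188). These 4 held under every alternative. UBE2B (0.67 ± 0.159, adjusted p = 0.0145), USP7 (0.62 ± 0.145, adjusted p = 0.0139), UBE2K (0.61 ± 0.139, adjusted p = 0.0122) and UBE2Q1 (0.47 ± 0.106, adjusted p = 0.0111) were also called. Each of these was lost without 1 or more arrays. The arrays were CD32 6 h replicate 2 and CD64 6 h replicates 1 and 2 for UBE2B (adjusted p = 0.0592 to 0.119), CD32 6 h replicate 1 and CD64 6 h replicate 2 for USP7 (0.0793 and 0.117), CD32 6 h replicate 1 and CD64 6 h replicates 1 and 2 for UBE2K (0.0562 to 0.0875), and CD32 6 h replicate 2 and CD64 6 h replicate 2 for UBE2Q1 (0.0666 and 0.0822). UBE2B was also lost under quantile or cyclic loess normalization (adjusted p = 0.0778 and 0.0731), and UBE2K and USP7 under cyclic loess normalization (0.0603 and 0.073). The count of 8 was 4 without CD64 6 h replicate 2, and without either control array it was 9, of which 1 was lower. USP22 was not called at 6 h, with a 95% interval of -0.25 to 0.20 log2 units.

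At 2 h 6 genes differed (16.3% of all probe sets did): 4 were higher with CD64 (6.86%) and 2 were lower (9.43%). The median over all probe sets was -0.11 log2 units as deposited and 0 under quantile normalization, where 4 genes were higher and 1 lower. UBE2V2 was 1.88-fold higher (log2 0.91 ± 0.129 SE, adjusted p = 0.00098) and UBE2E1 1.53-fold higher (0.61 ± 0.103, adjusted p = 0.00254), and both held under every alternative. USP14 was 1.34-fold higher (0.42 ± 0.082, adjusted p = 0.00555), and was lost without the variance trend (adjusted p = 0.0715). UBE2E3 was 1.47-fold higher (0.55 ± 0.139, adjusted p = 0.0205), which was lost without any of the 4 arrays compared, CD32 2 h replicates 1 and 2 and CD64 2 h replicates 1 and 2 (adjusted p = 0.0697 to 0.103). UBE2G2 was 2.58-fold lower (-1.37 ± 0.267, adjusted p = 0.00563), and was lost without CD32 2 h replicate 2 (log2 -1.13, adjusted p = 0.0663). UBE2H read 262 and 172 at CD32 2 h and 97.9 and 111 at CD64 2 h (-1.03 ± 0.317, adjusted p = 0.05), just inside the threshold. It was lost under quantile or cyclic loess normalization (adjusted p = 0.164 and 0.16), with a floor of 16 (0.051), and without any of the 8 cross-linked arrays (0.058 to 0.278). The count of 6 was 3 without CD32 2 h replicate 2.

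**Figure D4:**
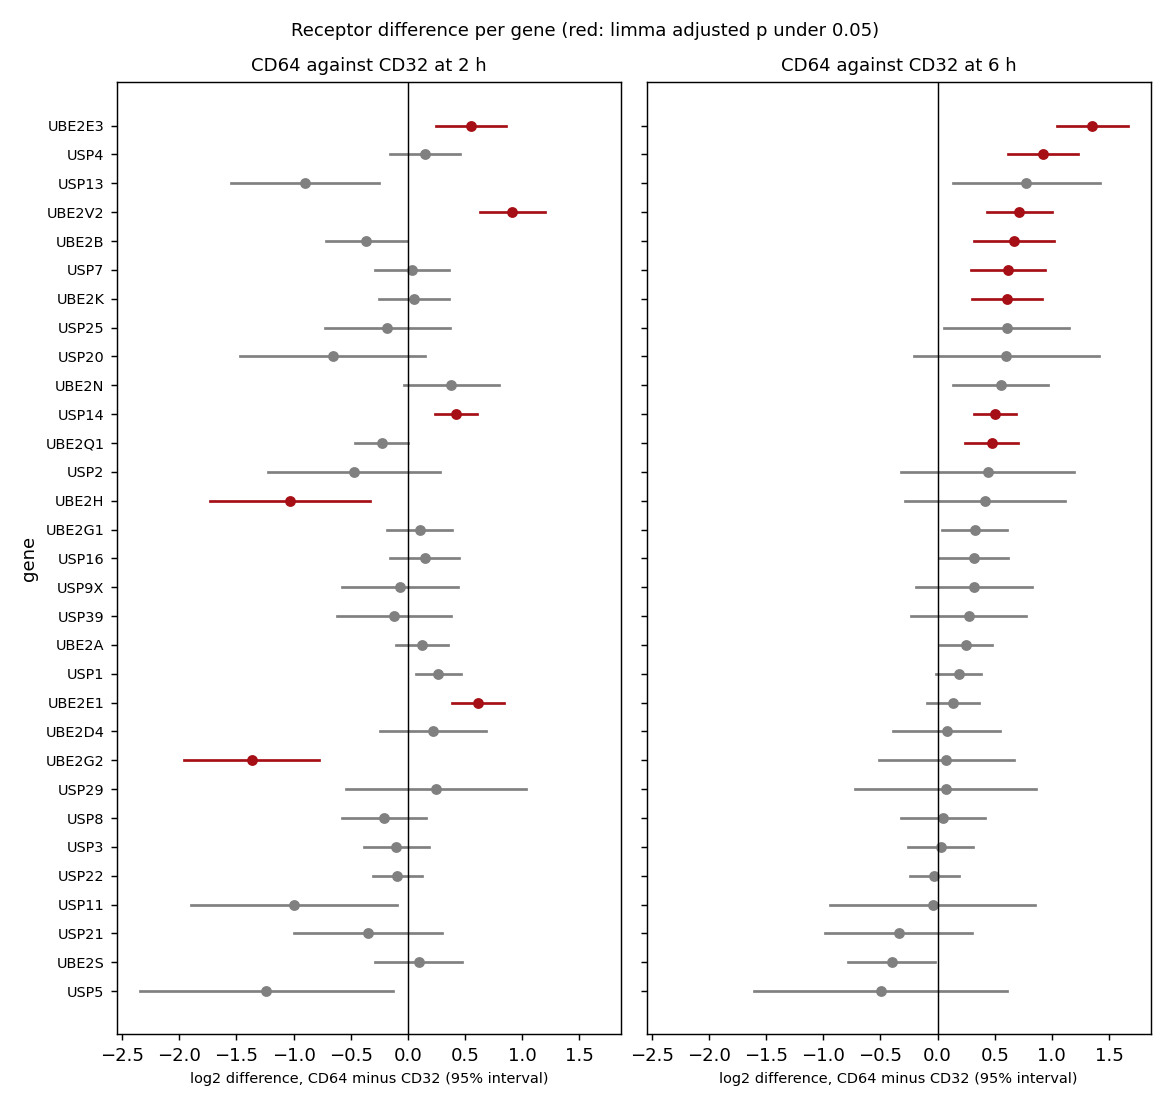
Log2 difference between CD64 and CD32 cross-linking for each of the 31 genes at 2 h (left) and 6 h (right), with 95% intervals from limma; red marks an adjusted p under 0.05 and genes are ordered by the 6 h value. At 6 h all 8 called genes lie to the right of 0, led by UBE2E3 at 1.36, and at 2 h UBE2G2 and UBE2H lie to the left.

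Between 2 h and 6 h of CD32 cross-linking 26 of 31 log2 changes were negative, with a median of -0.24 beside -0.05 over all probe sets. Calls numbered 4 (4.46% of all probe sets were called), of which 4 were falls (2.43%) and 0 rises (2.04%), and 10 were lower and 0 higher by limma with unadjusted p below 0.05, where 10.9% and 7.73% of all probe sets were. USP4 fell 1.67-fold (log2 -0.74 ± 0.138 SE, adjusted p = 0.0152), UBE2E3 1.6-fold (-0.67 ± 0.139, adjusted p = 0.0229), UBE2Q1 1.45-fold (-0.54 ± 0.106, adjusted p = 0.0189) and USP14 1.3-fold (-0.37 ± 0.082, adjusted p = 0.0283). None of these 4 was called without CD32 2 h replicate 1, CD32 2 h replicate 2 or CD32 6 h replicate 2, and USP4 alone was without CD32 6 h replicate 1. USP14 was also lost without CD64 6 h replicate 1 (adjusted p = 0.0509) or replicate 2 (0.0522). The count of called genes was 0 without either CD32 2 h array and 1 without either CD32 6 h array. Under cyclic loess normalization UBE2E3 (adjusted p = 0.0618) and USP14 (0.0537) were lost, and over all probe sets the upward share of calls was 56.1% against 45.6% as deposited.

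Between 2 h and 6 h of CD64 5 genes changed (13.8% of all probe sets did): 2 rose (7.56%) and 3 fell (6.25%). UBE2G2 rose 3.59-fold (log2 1.85 ± 0.267 SE, adjusted p = 0.0013), which held under every alternative. UBE2B rose 1.56-fold (0.64 ± 0.159, adjusted p = 0.0219). UBE2E1, USP1 and USP14 fell 1.31-fold, 1.28-fold and 1.22-fold (adjusted p = 0.0307, 0.0244 and 0.039). Under quantile normalization only UBE2G2 was called, with UBE2B at adjusted p = 0.163, UBE2E1 at 0.133, USP1 at 0.234 and USP14 at 0.0931; cyclic loess gave 0.119, 0.441, 0.483 and 0.124. UBE2B was lost without CD64 2 h replicate 1 (adjusted p = 0.147), CD64 6 h replicate 1 (0.16) or CD64 6 h replicate 2 (0.0844), and UBE2E1, USP1 and USP14 without any of the 4 CD64 arrays (0.0566 to 0.187). USP14 was also lost without either CD32 2 h array (0.0544 and 0.056) and with a floor of 16 (0.051). The count of 5 was 2 without CD64 2 h replicate 1, 3 without CD64 2 h replicate 2 and 1 without CD64 6 h replicate 1 or replicate 2.

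The change from 2 h to 6 h differed between the receptors for 6 of 31 genes (11.5% of all probe sets were called): 6 upward with CD64 relative to CD32 (6.72%) and 0 downward (4.75%). By limma with unadjusted p below 0.05 11 were upward and 1 downward, where 15.3% and 8.69% of all probe sets were. The 6 were UBE2B, UBE2E3, UBE2G2, UBE2Q1, USP4 and USP13. UBE2G2 and UBE2B rose over time with CD64 and USP4, UBE2E3 and UBE2Q1 fell with CD32, while USP13 was called over time with neither receptor. From 2 h to 6 h the actin ratio went from 1.56 to 1.99 with CD32 and from 1.81 to 1.12 with CD64. Mean log2 signal of the added control transcripts went from 11.11 to 12.22 with CD32 and from 10.71 to 9.15 with CD64. The part of these shifts in the 6 calls was not tested. Without the variance trend UBE2Q1 (limma adjusted p = 0.092), UBE2E3 (0.0532), UBE2G2 (0.0645) and USP4 (0.0719) were lost. The count was 1 under quantile or cyclic loess normalization. It was 1 without CD32 2 h replicate 2 or CD64 6 h replicate 2, 2 without CD64 6 h replicate 1 and 3 without CD64 2 h replicate 1 or replicate 2. UBE2Q1 was lost without CD32 2 h replicate 2 or CD64 6 h replicate 2 (adjusted p = 0.058 and 0.0591), and UBE2B without CD32 2 h replicate 1, CD64 2 h replicate 1 or CD64 6 h replicate 1 (0.0535 to 0.0676). USP13 was lost without CD32 2 h replicate 2, CD32 6 h replicate 1, CD64 2 h replicate 1 or CD64 6 h replicate 2 (0.0781 to 0.11). UBE2G2 was lost without any cross-linked array other than CD32 2 h replicate 1 and CD64 2 h replicate 1 (0.0598 to 0.137), UBE2E3 without any other than CD32 6 h replicate 1 (0.0523 to 0.106), and USP4 without any other than CD32 2 h replicate 1 and CD32 6 h replicate 1 (0.0684 to 0.105).

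Elsewhere in the pathway, 135 genes of 5 lists were tested: ubiquitin and E1 enzymes, the NEDD8 and SUMO pathway, other deubiquitinases, E3 ligases, and cullin-RING and anaphase-promoting complex subunits. Of these 22 rose and 10 fell at CD32 2 h, 25 and 23 at CD32 6 h, 26 and 18 at CD64 2 h, and 28 and 14 at CD64 6 h. Over all probe sets 8.86%, 9.63%, 7.64% and 10.7% rose and 6.60%, 10.3%, 8.24% and 9.94% fell in the same comparisons. Of 64 E3 ligases 16, 17, 10 and 18 rose and 3, 9, 14 and 7 fell in that order. Of 41 cullin-RING and anaphase-promoting complex subunits 5, 5, 11 and 9 rose and 2, 7, 0 and 2 fell. Of 15 other deubiquitinases 0, 1, 2 and 0 rose and 3, 4, 3 and 3 fell. Of 13 NEDD8 and SUMO genes 1, 1, 3 and 1 rose and 2, 3, 0 and 0 fell. Of 2 ubiquitin and E1 genes 0, 1, 0 and 0 rose and 0, 0, 1 and 2 fell. The medians of the 135 were 0.03, -0.14, -0.05 and 0.08, beside the medians of all probe sets given above.

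UBA1, the main E1 that charges most of these E2s, read 1743 and 1693 in control, 2137 and 2306 at CD32 2 h, 3448 and 2597 at CD32 6 h, 914 and 885 at CD64 2 h, and 723 and 903 at CD64 6 h. It thus lay above control with CD32 and below it with CD64: it rose 1.74-fold at CD32 6 h (log2 0.80 ± 0.141 SE, adjusted p = 0.00234) and fell 2.13-fold at CD64 6 h (-1.09 ± 0.141, adjusted p = 0.000294). CUL3, the scaffold of a ligase family, rose 3.58-fold at CD32 2 h (1.84 ± 0.106, adjusted p = 2.99e-06), and the ligase TRIM8 rose 5.28-fold at CD64 6 h (2.40 ± 0.195, adjusted p = 1.57e-05). TNFAIP3, a deubiquitinase that restrains NF-kappaB, rose 1.5-fold at CD32 6 h (0.58 ± 0.11, adjusted p = 0.00339) and fell 2.1-fold at CD64 2 h (-1.07 ± 0.11, adjusted p = 0.000147). It read 1606 and 1362 in control, 1183 and 1249 at CD32 2 h, 2324 and 2114 at CD32 6 h, 724 and 682 at CD64 2 h, and 1136 and 1242 at CD64 6 h. The SUMO ligase RANBP2 rose 1.91-fold at CD64 6 h (0.93 ± 0.144, adjusted p = 0.000946). At CD32 6 h the damage-recognition subunit DDB2 fell 3.54-fold (-1.82 ± 0.277, adjusted p = 0.000927). DDB2 read 960 and 1137 in control and 434 and 200 at CD32 6 h, where the 2 arrays lay far apart. The ligase MARCHF6 of the endoplasmic reticulum fell by 2.68 on the log2 scale at CD32 6 h (± 0.446, adjusted p = 0.00162), with CD32 6 h replicate 1 under the floor. The deubiquitinase OTUD4 was at least 2.98-fold lower at CD64 6 h (adjusted p = 0.00525). The SUMO ligase PIAS1 fell 2.25-fold at CD32 6 h (-1.17 ± 0.282, adjusted p = 0.0138), a call lost without control replicate 1 (adjusted p = 0.0576) or CD32 6 h replicate 1 (adjusted p = 0.0828).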

How the data were processed

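The 10 deposited arrays (5 groups of 2) hold linear signal intensity, 1 value per probe set. The authors had scaled them, as the values themselves show; software and build were not given in the sources used here. Of 8793 probe sets 47 are controls; 7840 have 1 symbol in the platform annotation, 388 several and 518 none. Values were used as deposited, floored at the percentile 25 of all values (37.5) and taken to log2, and the 7708 probe sets that exceeded it on 2 or more arrays entered the fit. limma 3.58.1 in R 4.3.3 fitted 1 mean per group (lmFit, eBayes with a variance trend, 5 residual and 5.65 prior degrees of freedom), with 2-sided tests and Benjamini-Hochberg adjustment over all probe sets tested; errors after ± are standard errors of the log2 change. The code was tested on simulated data. The number of arrays limits the precision.

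Genes named with full values were the 5 highest and 5 lowest called in each comparison with control, the 3 highest and lowest in each other, the 3 brightest genes, and the highest and lowest called gene of each pathway list; further called genes are given too. The members and lists were chosen with earlier results of these data known. Promoter sequences are RefSeq's. Alternatives were the floor, normalization, variance trend, samples fitted, filter and leaving out each array.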

Additional observations from a re-analysis of the deposited data

Results flagged for a closer look

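For 6 of 31 genes the change from 2 h to 6 h differed between the receptors in the limma test of that difference, all upward with CD64 relative to CD32 (6.72% of all 7708 probe sets were called in that direction, and 4.75% in the other, where no UBE2 or USP gene was). USP13 differed by 1.68 ± 0.413 SE on the log2 scale (adjusted p = 0.0244): it changed by -0.92 from 2 h to 6 h of CD32 and by 0.76 with CD64. UBE2G2 differed by 1.44 ± 0.378 (adjusted p = 0.0323), with changes of 0.40 and 1.85. UBE2B differed by 1.03 ± 0.225 (adjusted p = 0.0143), with changes of -0.39 and 0.64. UBE2E3 differed by 0.80 ± 0.197 (adjusted p = 0.024), with changes of -0.67 and 0.13. USP4 differed by 0.78 ± 0.196 (adjusted p = 0.0272), with changes of -0.74 and 0.04. UBE2Q1 differed by 0.70 ± 0.15 (adjusted p = 0.013), with changes of -0.54 and 0.16. Without the variance trend the UBE2Q1 call was lost (limma adjusted p = 0.092), as were those of UBE2E3, UBE2G2 and USP4. The median of this difference over all probe sets was 0.16, and over the 31 genes 0.39. The actin ratio and the control transcript signal given above also rose from 2 h to 6 h with CD32 and fell with CD64. Their part was not tested. Under quantile and cyclic loess normalization the median over all probe sets was -0.005 and -0.02, and UBE2Q1 alone was called; USP13 then had adjusted p = 0.0895 and 0.0819, UBE2G2 0.135 and 0.129, UBE2B 0.102 and 0.0907, UBE2E3 0.138 and 0.19, and USP4 0.184 and 0.184. The count of 6 was 1 without CD32 2 h replicate 2 or CD64 6 h replicate 2, 3 without CD64 2 h replicate 1 or replicate 2, and 2 without CD64 6 h replicate 1.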

How the results depend on the processing

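No called change of a UBE2 or USP gene changed sign under any alternative run: of 1313 values for 73 changes, 1023 stayed past the threshold and 290 did not, and 24 of the 73 changes held throughout. No paired analysis was possible because the labels give no replicate number that the cross-linked groups share. Each of the 31 genes has 1 probe set, so averaging probe sets changes nothing.

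Counts of genes called moved by over 1.5 times as follows. Without a variance trend they were 4 at CD32 2 h against control, 8 at CD64 2 h, 6 at CD64 6 h and 0 for CD32 6 h against 2 h. They were also 2 for CD64 6 h against 2 h and 3 for the interaction, 2 of these 3 among the 6 called with the trend. With only the groups compared in the fit they were 8 at CD64 2 h and 1 for CD32 6 h against 2 h. Under quantile normalization they were 1 for CD64 6 h against 2 h and 1 for the interaction. Under cyclic loess they were 8 at CD64 6 h against control, 2 for CD32 6 h against 2 h, 1 for CD64 6 h against 2 h and 1 for the interaction. At a floor of 16 or 64, with no filter and with a stricter filter, counts stayed within 1.5 times.

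Leaving out each array in turn, where a lone array is assumed to vary like the other groups, gave 4 to 8 at CD32 2 h, 5 to 8 at CD32 6 h, 8 to 16 at CD64 2 h and 6 to 11 at CD64 6 h against control. It gave 3 to 6 for CD64 against CD32 at 2 h, 4 to 9 at 6 h, 0 to 4 for CD32 6 h against 2 h, 1 to 5 for CD64 6 h against 2 h, 1 to 6 for the interaction and 14 to 17 for the F-test. The cause was not tested, except that these fits have fewer arrays. Signal near the floor limits USP2 and USP29.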
